A study of Mus musculus with 6 samples.

Results

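The genes described here are transcription factors that drive fat cell differentiation and genes of fatty acid uptake, storage and signalling that adipocytes use, in mouse skin fibroblasts (MSFs) that were or were not made senescent. They were chosen by name, as the genes listed as Cebpa, Cebpb, Cebpd, Pparg, Fabp4, Lpl, Cd36, Plin2, Apod and Lepr in a table of 22162 genes. The names matched 9 of these 10 genes, each on a single row, and Cebpd was not analysed here. Of the 8 that were tested, none differed between senescent and non-senescent MSFs at an adjusted p under 0.05. Over all genes tested, 0.244% did. In 2 of these 8, Cebpa and Pparg, all senescent libraries lay above the non-senescent ones, as in 9.19% of all genes tested. Lpl and Apod, both abundant, had their lowest value of each group in replicate 2, and Cd36 was close to 0 in every library.

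Poly(A) RNA was sequenced from 6 samples of primary MSFs of the strain FVB/N. The cells came from the dorsal skin of a FASST mouse, in which the Col1a2 promoter drives a tamoxifen-inducible Cre recombinase, Cre-ERT2, and Cre releases a stop cassette at ROSA26 to give the cell cycle inhibitor p27Kip1 with GFP. All 6 samples carried these alleles and grew in 3% oxygen, 3 were treated with 10 µM tamoxifen (TAM) for 48 h and labelled senescent, and 3 received ethanol, the vehicle, and were labelled non-senescent. No sample combined TAM with cells that lack the inducible allele, so an effect of TAM itself cannot be told apart from that of p27Kip1. The MSFs are described as a line from 1 female mouse, and the sources used here do not say that replicates came from separate cultures or give the time between treatment and RNA collection. The p-values therefore measure the spread between these libraries, which may be technical.

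In preadipocytes, the basic leucine zipper factors C/EBPβ and C/EBPδ, the products of Cebpb and Cebpd, are induced early and turn on Cebpa and Pparg, whose products maintain each other and the genes of the mature fat cell. Pparg encodes PPARγ, a nuclear receptor that binds DNA with an RXR partner, and fatty acids and their derivatives are among its ligands. Outside fat, C/EBPβ is known for driving inflammatory genes, Il6 among them, and for a part in oncogene-induced senescence. Dermal fibroblasts and dermal adipocytes share progenitors in the skin.

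Promoter windows of RefSeq (GRCm38.p6), from 250 bases before to 50 bases after each annotated start, were held for 7 members, in 10 windows. They were searched on both strands for TTGCNNAA, a consensus of C/EBP sites, for its palindrome TTGCGCAA, which TTGCNNAA also matches, for direct repeats of AGGTCA with 1 base between them (the PPAR-RXR element), for TTCNNNGAA, a STAT site, and for TGACGTCA, a CREB site. Across 32544 promoters of the same length these were found in 10.8%, 0.184%, 0.0399%, 8.33% and 1.80%. The windows of Cebpa and Cebpb are shown because their products bind the C/EBP motif, and that of Pparg, chosen after the matches were seen, because it is the Pparg window that holds the motif. Capitals mark a match to TTGCNNAA on either strand.
Cebpa, chr7:35119043-35119342, plus strand: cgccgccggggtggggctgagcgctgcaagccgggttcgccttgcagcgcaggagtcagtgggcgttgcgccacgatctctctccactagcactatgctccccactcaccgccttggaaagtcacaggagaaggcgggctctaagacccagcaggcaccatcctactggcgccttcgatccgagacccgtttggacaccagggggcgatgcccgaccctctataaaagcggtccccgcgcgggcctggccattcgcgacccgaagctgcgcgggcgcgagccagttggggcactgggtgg
Cebpb, chr2:167688665-167688964, plus strand: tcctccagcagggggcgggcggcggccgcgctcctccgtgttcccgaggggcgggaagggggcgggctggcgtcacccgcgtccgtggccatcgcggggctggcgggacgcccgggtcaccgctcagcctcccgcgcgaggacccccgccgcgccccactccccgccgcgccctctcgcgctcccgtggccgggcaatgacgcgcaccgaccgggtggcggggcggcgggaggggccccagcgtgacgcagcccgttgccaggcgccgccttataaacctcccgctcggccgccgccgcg
Pparg, chr6:115421816-115422115, plus strand: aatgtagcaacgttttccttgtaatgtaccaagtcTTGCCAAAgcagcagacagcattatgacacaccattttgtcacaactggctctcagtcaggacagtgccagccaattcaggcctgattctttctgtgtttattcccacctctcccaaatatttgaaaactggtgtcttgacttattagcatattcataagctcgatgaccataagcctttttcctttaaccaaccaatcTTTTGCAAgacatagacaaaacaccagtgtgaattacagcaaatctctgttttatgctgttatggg
The Pparg window holds TTGCCAAA at 215 bases and TTTTGCAA at 16 bases before the start, and the other 2 windows of Pparg hold no match. A window of Lepr (chr4:101717656-101717955, plus strand) has TTCTGCAA at 19 bases after the start. The windows of Cebpa, Cebpb, Cd36, Plin2 and Apod have no match to any of the 5 motifs, and none of the 10 windows matches the other 4. The windows of Cebpa and Cebpb are 67.3% and 80.7% G and C, and that of Pparg is 40.3%. Coordinates below are on mm9, the build to which the authors mapped the reads.

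Values are the authors' normalized counts per gene, whose scaling is not stated, and they sum to between 14952367 and 17314953 in the 6 libraries. A gene was tested if it reached 1 c.p.m., or 16.2 normalized counts, in at least 3 of the 6 libraries, as 11877 genes did. Fold changes are senescent against non-senescent on the scale log2(normalized count + 1), with the SE and the Benjamini-Hochberg adjusted p of limma over all genes tested. Cdkn1b, which encodes p27Kip1, was at 1427 to 3074 normalized counts in non-senescent and 1520 to 1699 in senescent MSFs. The inducible p27Kip1 lies at ROSA26, and the sources do not say whether transgene reads were counted in Cdkn1b. All 11 fibroblast markers looked at reached the level for testing, and their summed level was 1538890 to 1685650 in non-senescent and 700700 to 1130370 in senescent libraries. Most of this sum was collagen RNA. Col1a1, Col1a2 and Col3a1 had means of 512956, 371706 and 522846 in non-senescent and 330050, 220304 and 246510 in senescent libraries. Of the mature adipocyte markers Adipoq, Plin1, Cidec, Lep, Retn, Cfd, Slc2a4 and Pck1, none of the 8 reached the level for testing. Their summed level was 4.31 to 11.5 and 9.13 to 16.2 normalized counts, Lep was at 0 in all libraries, and Adipoq was at 0 in all but senescent replicate 2 (0.82). By these markers, the MSFs held almost no RNA of mature fat cells, and the name adipogenic refers to what the members do in fat.

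Cebpa (ENSMUSG00000034957, chr7:35904312-35906945, plus strand), a gene of 1 exon, encodes C/EBPα, which with PPARγ sustains the fat cell state. Its normalized counts were 40.4, 42.9 and 29.9 in non-senescent replicates 1 to 3 and 287.8, 60.3 and 100.03 in senescent replicates 1 to 3. The groups did not overlap, the non-senescent libraries lay close together, and senescent replicate 1 was far above the others. The means were 37.7 ± 6.85 and 149 ± 121 (SD, n = 3 each). The log2 fold change was 1.66 (SE 0.56, 95% interval 0.35 to 2.98, limma adjusted p = 0.273), so the member with the largest fold change did not pass the threshold across all genes. Its differences within the same-numbered pairs were 2.80, 0.48 and 1.71 on the log2 scale. With replicate as a block in the model the adjusted p was 0.190. The smallest difference was that of replicate 2. Without the senescent library of that pair the blocked fit gave a log2 fold change of 2.25 and an adjusted p of 0.0269, with 7.17% of the genes tested called, and without the non-senescent one 2.25 and an adjusted p of 0.0220, with 8.16% called. These 2 fits rest on the pairs of replicates 1 and 3, and leaving out the smallest difference had to raise the estimate. Without a replicate 1 library it was 1.09 (limma adjusted p = 0.398 without the non-senescent and 0.443 without the senescent one). Without a replicate 3 library it was 1.64 (adjusted p = 0.456 and 0.478 in the same order). All these fits were added after the data were seen.

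Cebpb (ENSMUSG00000056501, chr2:167514415-167515918, plus strand), also of 1 exon, encodes the early adipogenic and inflammatory factor C/EBPβ. It was at 1182, 1820 and 573 normalized counts in non-senescent and 1687, 1099 and 1291 in senescent replicates. The groups overlapped, with the highest and the lowest library both among the non-senescent ones. The means were 1192 ± 624 and 1359 ± 300 (SD, n = 3 each) and the log2 fold change was 0.32 (SE 0.41, 95% interval -0.65 to 1.29, limma adjusted p = 0.784). The difference was negative in the pair of replicate 2 (-0.73) and positive in those of replicates 1 (0.51) and 3 (1.17). It changed sign, to -0.13, without non-senescent replicate 3. Tmem189, on the other strand, overlaps 20.7% of its exon bases, and whether counting used the strand is not given in the sources used here.

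Pparg (ENSMUSG00000000440, chr6:115311239-115440419, plus strand), the master regulator of fat cell differentiation, had 72.8, 50.5 and 20.2 normalized counts in non-senescent and 108.4, 75.4 and 86.6 in senescent libraries. The groups did not overlap, though the highest non-senescent value lay just under the lowest senescent one. The means were 47.8 ± 26.4 and 90.1 ± 16.8 (SD, n = 3 each). The log2 fold change was 1.06 (SE 0.48, 95% interval -0.07 to 2.19, limma adjusted p = 0.403), and the difference was positive in all 3 pairs (0.57, 0.57 and 2.05). The pair of replicate 3 differed most, its non-senescent library having the lowest Pparg value of the 6.

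**Figure D1:**
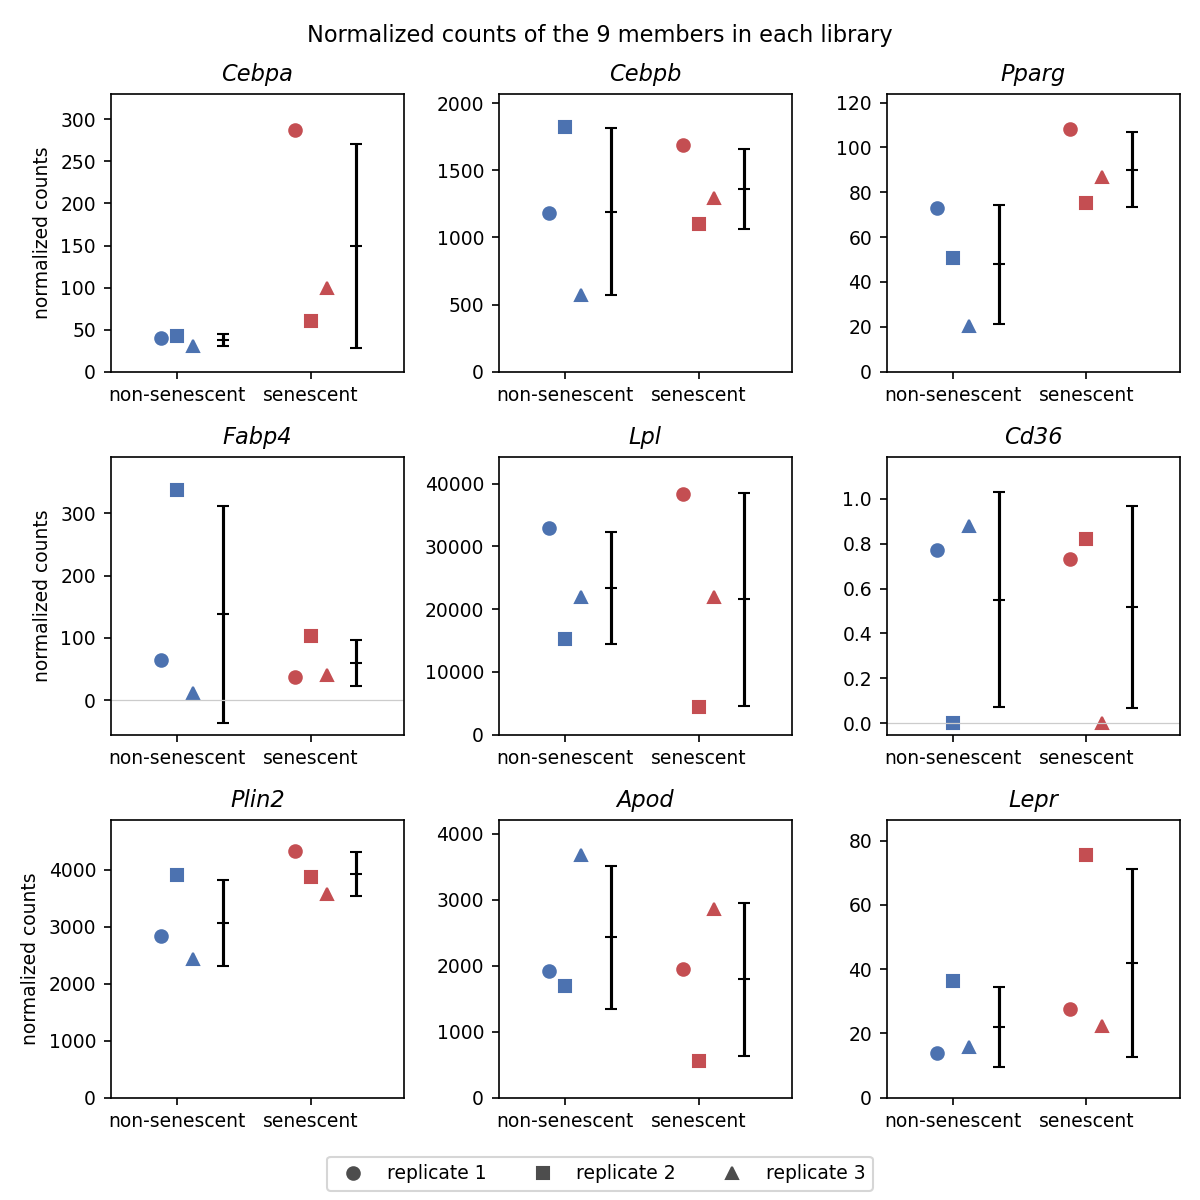
Normalized counts (y axis, linear) of the 9 members in each library, by group, with 1 symbol for each of replicates 1 to 3 and black bars for the mean ± SD of the 3 libraries, which for Fabp4 reach below 0. Cebpa and Pparg are the panels whose groups do not overlap, and the senescent replicate 2 library is low for Lpl and Apod.

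The binding protein and lipase genes showed wide spread within the groups. Fabp4 (ENSMUSG00000062515, chr3:10204347-10208576, minus strand) encodes the fatty acid binding protein of adipocytes, which macrophages also make. Its normalized counts were 64.7, 337.02 and 11.3 in non-senescent and 36.9, 102.2 and 39.96 in senescent libraries. The non-senescent libraries alone spanned more than all senescent ones, and the means were 138 ± 175 and 59.7 ± 36.9 (SD, n = 3 each). The log2 fold change was -0.26 (SE 1.12, 95% interval -2.88 to 2.37, limma adjusted p = 0.947), an interval that covers both directions. The macrophage markers' summed level was 215 to 554 normalized counts in non-senescent and 397 to 570 in senescent libraries, 5 of the 12 were tested, none was called in either model, and Adgre1 (listed as Emr1), Tyrobp and C1qa were at 0 in all libraries. Csf1r (log2 fold change 0.82, limma adjusted p = 0.388) and Lyz2 (1.48, adjusted p = 0.141) were higher in all senescent libraries, and Cd14 was at 1.08 (adjusted p = 0.320) with groups that overlapped. Cd68 (-0.59, adjusted p = 0.758) and Aif1 (-0.26, adjusted p = 0.890) had negative fold changes, also with groups that overlapped. Cd68, a lysosomal protein of macrophages that other cells also make, was at 52.1, 352 and 97.4 normalized counts in non-senescent and 49.5, 90.5 and 115.9 in senescent libraries, with its highest value, like that of Fabp4, in non-senescent replicate 2. Their part in the Fabp4 values was not tested.

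Lpl (ENSMUSG00000015568, chr8:71404390-71430833, plus strand) encodes lipoprotein lipase, which frees fatty acids from circulating triglycerides, and was the most abundant member. It was at 32977, 15244 and 22013 normalized counts in non-senescent and 38405, 4400 and 21923 in senescent libraries. Replicates 1 and 3 of the groups were alike, while senescent replicate 2 was the lowest of the 6. The means were 23411 ± 8949 and 21576 ± 17005 (SD, n = 3 each), with a log2 fold change of -0.53 (SE 0.76, 95% interval -2.33 to 1.27, limma adjusted p = 0.814). Without senescent replicate 2 it was 0.38, so that library decided the sign.

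Cd36 (ENSMUSG00000002944, chr5:17287508-17341714, minus strand) encodes a membrane transporter of fatty acids that is abundant in fat cells and macrophages. It was at 0.77, 0 and 0.88 normalized counts in non-senescent and 0.73, 0.82 and 0 in senescent libraries, and did not reach the level for testing. The smallest values above 0 in these libraries are 0.36 to 0.89, so these values are near the lowest measured, and a difference could not be judged at this level.

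Plin2 (ENSMUSG00000028494, chr4:86294290-86304587, minus strand) encodes the coat protein of lipid droplets found in most cells. Its normalized counts were 2839, 3908 and 2437 in non-senescent and 4334, 3865 and 3574 in senescent libraries. The senescent library was the higher in the pairs of replicates 1 and 3, and the pair of replicate 2 was nearly equal. The means were 3061 ± 760 and 3924 ± 383 (SD, n = 3 each), and the log2 fold change of 0.38 (SE 0.22, 95% interval -0.13 to 0.90, limma adjusted p = 0.510) was within the spread. Plin2 had the narrowest interval of the members tested.

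Apod (ENSMUSG00000022548, chr16:31296278-31314894, minus strand) encodes apolipoprotein D, a secreted lipid-carrying lipocalin of fibroblasts. It was at 1926, 1686 and 3676 normalized counts in non-senescent and 1954, 555 and 2866 in senescent libraries. Replicate 3 was the highest and replicate 2 the lowest in both groups. The means were 2429 ± 1086 and 1792 ± 1164 (SD, n = 3 each), with a log2 fold change of -0.65 (SE 0.61, 95% interval -2.08 to 0.79, limma adjusted p = 0.695). Without senescent replicate 2 it was 0.050.

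Lepr (ENSMUSG00000057722, chr4:101390009-101486272, plus strand) encodes the receptor of leptin, the hormone that fat cells secrete, and its transcripts mark some mesenchymal progenitors. Its normalized counts were 13.9, 36.3 and 15.9 in non-senescent and 27.6, 75.4 and 22.3 in senescent libraries. Replicate 2 was highest in both groups, and the groups overlapped. The means were 22.0 ± 12.4 and 41.8 ± 29.2 (SD, n = 3 each) and the log2 fold change was 0.81 (SE 0.60, 95% interval -0.59 to 2.22, limma adjusted p = 0.608). The difference was positive in all 3 pairs (0.94, 1.03 and 0.46). The longest Lepr transcript shares at least 100 bases at 95% identity or more with transcripts of 2 other genes, Pola2 and Prodh2, and the other 8 members share none. Reads of the shared bases could have been left out of the Lepr count or placed at another gene, which was not tested.

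**Figure D2:**
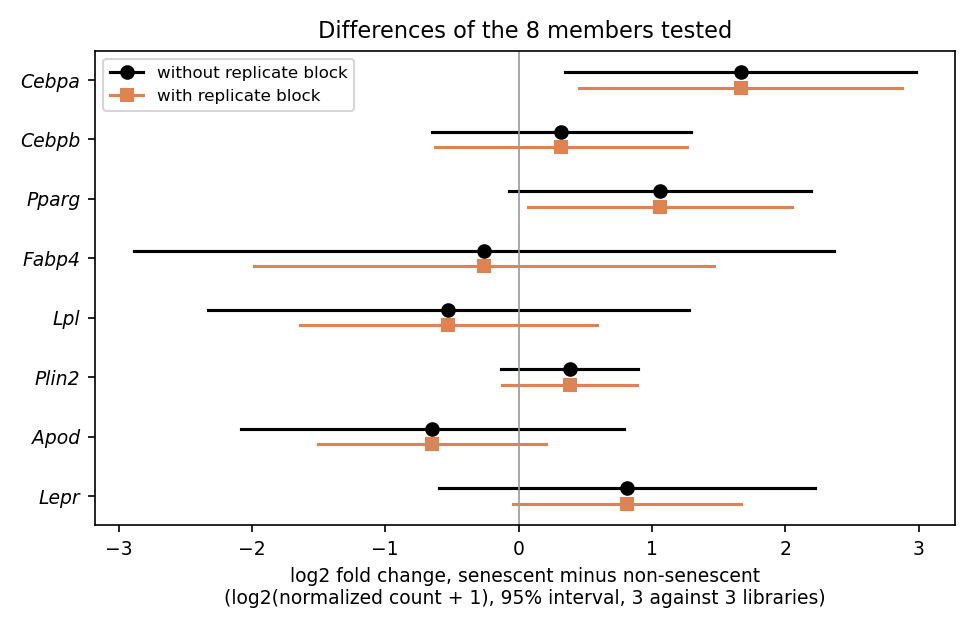
Log2 fold changes (x axis, senescent minus non-senescent, log2 of normalized count + 1) of the members tested, with 95% intervals from limma for the plain model and for that with a replicate block. The interval of Cebpa lies above 0 in both fits and that of Pparg in the blocked fit, before adjustment over all genes.

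Of the 8 members tested, 0 passed the adjusted threshold in limma, where 0.244% of all genes tested did (20 higher and 9 lower). In the blocked model the members again gave 0, where 1.62% of genes passed. Before adjustment, Cebpa was the 1 member under the threshold of 0.05 in limma, as were 1588 of the 11877 genes tested. In the blocked model Cebpa and Pparg were the 2 under it, as were 2014 of the 11877 genes. The fold change was positive in 5 members and negative in 3, with a median of 0.35 beside -0.03 over all genes tested. In 2 of the 8, Cebpa and Pparg, all senescent libraries lay above the non-senescent ones, as in 9.19% of all genes, and in none did they all lie below, and 20.6% of genes were separated in either direction. A 2-sided exact permutation test of 3 libraries against 3 cannot go below p = 0.1, which was its value for Cebpa and for Pparg.

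**Figure D3:**
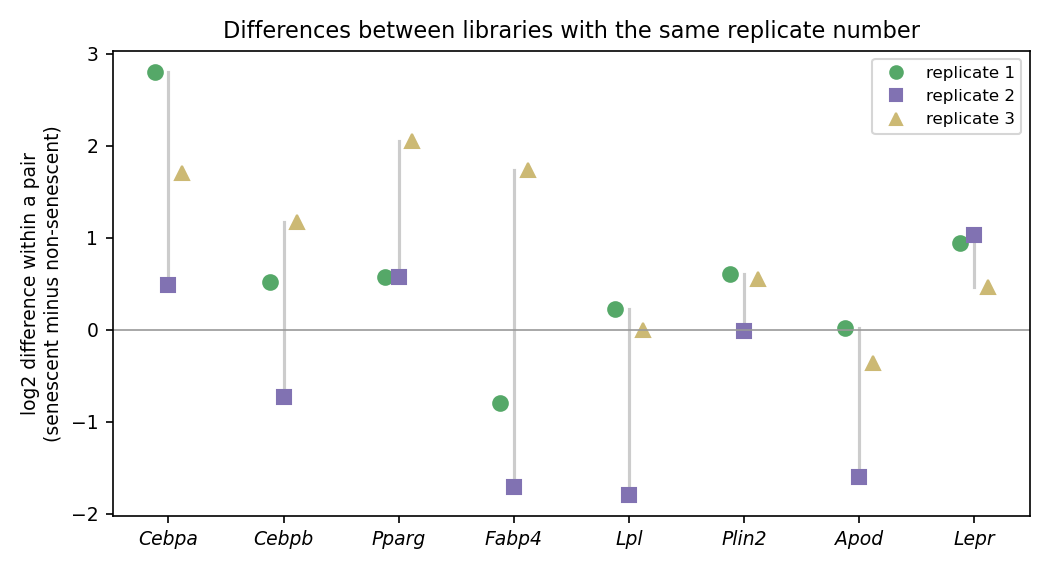
Log2 differences (y axis, senescent minus non-senescent, log2 of normalized count + 1) within the same-numbered pairs of libraries for the members tested, 1 symbol per pair, with grey lines for the range. All 3 points lie above 0 for Cebpa, Pparg and Lepr, and the point of replicate 2 is the lowest for Cebpa, Cebpb, Lpl, Plin2, Apod and Fabp4.

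The members differed more in their level than between the groups. Levels between genes are compared here per kb of exon, from the union of annotated exons, which may differ from what was counted. Lpl was the highest, at means of 3438 and 3168 normalized counts per kb in non-senescent and senescent MSFs, which ranks it at 164 and 160 of 11874 genes. Apod followed at 943 and 695 and ranked 777 and 1050. Plin2 was at 872 and 1117, and Cebpb at 792 and 904. The ranges of Apod, Plin2 and Cebpb over the libraries overlapped in each group, so their order was not resolved, and Lpl in senescent replicate 2 (646) fell among them. Fabp4 stood at 216 and 93.7. Pparg was at 24.1 and 45.4, and Cebpa at 14.3 and 56.7, and their order was reversed between the groups while their ranges overlapped within each. Lepr was at 3.12 and 5.93, ranked 11727 and 11560, and Cd36 at 0.140 and 0.132. The late factors Cebpa and Pparg were measured at far lower levels per length than Cebpb.

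The libraries of replicate 2 were the highest of both groups for Lepr and Fabp4 and the lowest of both for Lpl and Apod, 2 of the 8 members each. Over all genes tested, replicate 2 was the highest in both groups for 19.5% and the lowest in both for 18.7%.

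The genes most like a member across the 6 libraries were sought by the Pearson r of log2(normalized count + 1) over 11876 other genes, as a description that includes the difference between the groups. For Cebpb they were Bgn (r = 0.987), Dhrs3 (r = 0.987) and Ppt2 (r = 0.981). For Pparg they were Cxcr7 (r = 0.990), Mphosph8 (r = 0.987) and S1pr3 (r = 0.979). With 6 points, 11 genes reached an r over 0.95 with Cebpb and 17 with Pparg.

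The rest of the pathway was read from 10 lists of 108 genes, of which 107 were matched and 91 were tested. A single gene, Lcn2, was called, with fold changes positive in 40 and negative in 51 and a median of -0.05, while in the blocked model 7 were called higher and 1 lower. Of the genes listed beside the C/EBP members, Cebpg, Cebpz and Ddit3 were tested, and Cebpz was listed for its name only. All 3 had a negative fold change, with a median of -0.27, and none was called. Their values were lower in all senescent libraries, as in 1359 of the 11877 genes tested. Ddit3, which encodes the stress-induced C/EBP partner CHOP, was at 2471, 23783 and 3957 normalized counts in non-senescent and 1587, 2040 and 2280 in senescent libraries (log2 fold change -1.66, limma adjusted p = 0.411), with non-senescent replicate 2 far above the other 5 libraries. Cebpz had a log2 fold change of -0.27 (adjusted p = 0.523).

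Among PPAR, RXR and cofactor genes, 12 of 15 were tested, with 5 positive and 7 negative fold changes and a median of -0.10, and Ppargc1a was not analysed here. Ncoa1, a coactivator of nuclear receptors, was at 961, 938 and 2484 normalized counts in non-senescent and 440, 365 and 771 in senescent libraries. It had a log2 fold change of -1.39 (limma adjusted p = 0.260), which passed the threshold with the replicate block (adjusted p = 0.0429) but not when the filter on low values was also left out (adjusted p = 0.284). The other factors that promote adipogenesis, from Klf4 to Creb1, had 2 positive and 10 negative fold changes among 12 tested, a median of -0.28 and no call. The strongest were Klf15, a factor that induces Pparg (226 ± 83.9 against 59.6 ± 30.7, SD, n = 3 each, log2 fold change -1.95, limma adjusted p = 0.145), and Zfp423, which marks preadipocytes (103 ± 35.6 against 29.3 ± 11.6, log2 fold change -1.81, adjusted p = 0.183). Their groups did not overlap. The inhibitors of adipogenesis had 3 positive and 6 negative fold changes among 9 tested, a median of -0.38 and no call, and in all those tested the groups overlapped.

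The lipid lists gave no call in either fit. Fatty acid uptake and binding had 3 positive and 9 negative fold changes among 12 tested, with a median of -0.31. Fabp3, the binding protein of muscle, was at 34.3 ± 8.37 against 89.4 ± 39.0 normalized counts (SD, n = 3 each, log2 fold change 1.31, limma adjusted p = 0.240). Acsl1, which activates fatty acids, had a fold change of 0.66 (adjusted p = 0.254). These 2 were higher in all senescent libraries, against the direction of most of their list. Triglyceride synthesis and droplet genes had 5 positive and 7 negative fold changes among 12, with a median of -0.08, and Fitm2, needed for droplet formation, was at 310 ± 25.4 against 522 ± 91.0 (log2 fold change 0.74, limma adjusted p = 0.194). In lipolysis there were 3 of each among 6 tested, with a median of 0.01. Mgll, the monoglyceride lipase, was at 756 ± 144 against 1953 ± 1223 (log2 fold change 1.21, limma adjusted p = 0.271), and Lipa, the lysosomal acid lipase, at a fold change of -0.59 (adjusted p = 0.339). The 10 fatty acid oxidation genes, all tested, had fold changes from -0.10 to 0.24, and Hadhb, of the mitochondrial trifunctional protein, was at 0.17 (adjusted p = 0.672). This was the narrowest range of the 10 lists.

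Of the apolipoprotein, lipocalin and leptin signalling genes 6 of 10 were tested, with 4 positive and 2 negative fold changes, a median of 0.21 and no call. Apoe, the lipid carrier of many tissues, was at 132 ± 44.0 against 353 ± 175 normalized counts (SD, n = 3 each, log2 fold change 1.35, limma adjusted p = 0.254) and did not overlap between the groups. Inflammatory genes linked to C/EBP factors had 9 of 11 tested, all with positive fold changes and a median of 3.96. Results for these genes were known when they were listed, so the list is no independent evidence of direction. The study itself follows Il6, Cxcl1, Cxcl5 and Ccl2 in these cells and reported them increased in senescent MSFs. It used edgeR, at a false discovery rate under 0.05, and qRT-PCR, and it also measured more secreted IL-6 protein. In limma without the block their adjusted p-values were 0.170, 0.240, 0.0628 and 0.113, so that fit did not call them. Lcn2, a lipocalin like Apod, rose from 5.65 ± 3.02 to 97.0 ± 24.5 (log2 fold change 3.96, limma adjusted p = 0.0427). This call was lost with a pseudocount of 0.1, with no filter on low values, without senescent replicate 1 and without any 1 of the 3 non-senescent libraries. With the replicate block, Lcn2 (adjusted p = 0.0237), Ccl2 (log2 fold change 4.46, adjusted p = 0.00438), Hp (5.01, 0.0147), Cxcl5 (3.68, 0.0184), Saa3 (6.53, 0.0212), Il6 (4.08, 0.0332) and Cxcl1 (3.82, 0.0420) were called higher. Of these 7, Ccl2 alone was called in the blocked model with no filter on low values (adjusted p = 0.0377), and the others were at 0.246 to 0.320. These 7 genes encode cytokines, chemokines and acute phase proteins. Cebpb and Cebpa themselves were not called in that fit.

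**Figure D4:**
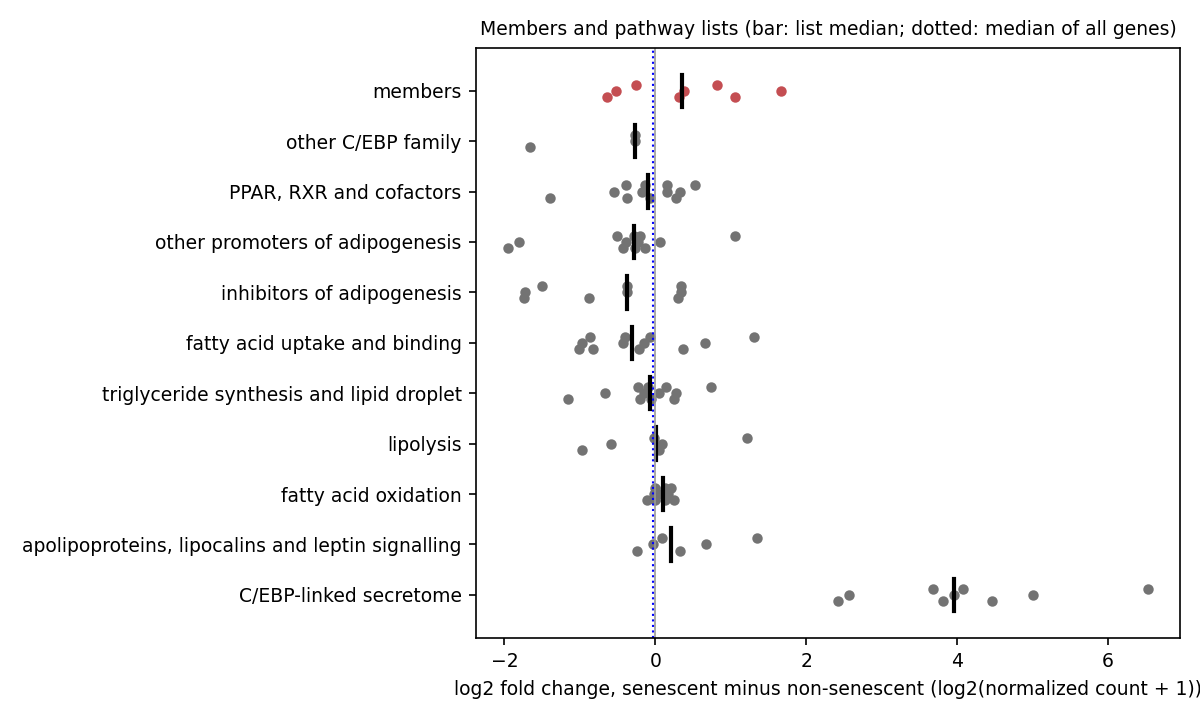
Log2 fold changes (senescent minus non-senescent, log2 of normalized count + 1) of the genes tested in the members and in each of the 10 pathway lists, 1 point per gene with the median of each. The C/EBP-linked inflammatory genes lie between 2.42 and 6.53 and the fatty acid oxidation genes between -0.10 and 0.24.

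Markers of other cell types that such a culture could hold were looked at beside these values, and whether they had a part in them was not tested. The fibroblast markers had 8 negative and 3 positive fold changes among 11, of which 6 were lower and 1, Thy1, higher in all senescent libraries, with no call. Over the 11877 genes tested, 1359 were lower and 1091 higher in all senescent libraries. Endothelial markers summed to 139 to 275 normalized counts in non-senescent and 64.0 to 77.8 in senescent libraries, with 2 of 8 tested and Cldn5 at 0 throughout. Kdr, the VEGF receptor of endothelial cells, was at 204.7, 68.7 and 116.3 in non-senescent and 4.84, 7.53 and 14.0 in senescent libraries. Its log2 fold change was -3.71, with a limma adjusted p of 0.0608, of 0.0488 in the blocked model, where it was called, and of 0.330 in that model with no filter on low values. The other marker tested, Egfl7, was at 0.12 (adjusted p = 0.907). Pericyte and smooth muscle markers, 5 of 6 tested, summed to 550 to 1050 and 879 to 2745. Schwann and nerve support markers, 2 of 6 tested, summed to 171 to 300 and 61.9 to 160. Keratinocyte markers, 2 of 8 tested, summed to 68.7 to 87.0 and 57.7 to 81.4, and the sebocyte markers, none of 4 tested, to 9.18 to 27.8 and 3.29 to 18.0. In bulk RNA, fewer cells of a type and less RNA per cell cannot be told apart.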

How the data were processed

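Poly(A) RNA was measured in 3 senescent and 3 non-senescent samples. The authors mapped reads to mm9 with TopHat, counted them with htseq-count, and tested the counts in edgeR with TMM normalization. The deposited signal holds normalized counts of each gene, which are not whole numbers and whose scaling is not stated, so read depth is unknown and no counting interval is given. The library sums were 14952367 to 17314953. The planned test allowed for this unit, and count models were not run.

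Values were log2-transformed with a pseudocount of 1 and modelled by limma 3.58.1 (R 4.3.3, intensity trend) for the 11877 genes that reached 1 c.p.m. (16.2 normalized counts) in 3 or more of the 6 libraries, and p-values were adjusted over all of them by Benjamini-Hochberg, with calls at an adjusted p under 0.05. The code of the fit was checked on simulated data. Their spread and fold changes were set and not taken from these libraries, so that check does not show the power here. Exact permutation tests were run per member. Libraries were grouped by label. Replicate numbers come from the sample titles, and nothing says what a number marks. Across genes, the deviations from the group mean correlated between libraries of the same number (r = 0.24, 0.29 and 0.42). Between different numbers r was -0.31 to 0.04. Deviations in a group cancel out, so this range follows in part from the same-number values. Because of those values, the blocked fit is given where it changes a call. Alternatives were other scalings, pseudocounts, filters, library weights, the block and leaving out each library.

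The members and lists were chosen with earlier results of these data known. All members are named. Of each pathway list, genes called in either fit are named, otherwise up to 2 with the largest fold change among those whose groups do not overlap, and for Cebpb and Pparg the 3 most correlated genes. Gene models were gencode vM1, transcripts were compared with BLAST 2.17.0, and figures were drawn with Python 3.11.15 and matplotlib 3.10.9 (pandas 2.3.3, scipy 1.17.1).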

Additional observations from a re-analysis of the deposited data

How the results depend on the processing

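The 9 members, Cd36 by the unfiltered fits only, were compared with up to 23 settings, and 170 of 186 values kept their direction and their side of the threshold. Cebpa, Pparg, Plin2 and Lepr kept a positive log2 fold change in all settings run, from 1.04 to 2.25, 0.55 to 1.45, 0.23 to 0.58 and 0.29 to 1.23. Without each library in turn, the values ran from -0.13 to 0.70 for Cebpb, from -1.46 to 0.93 for Fabp4, from -1.18 to 0.38 for Lpl and from -1.13 to 0.050 for Apod. Values turned for Cebpb, to -0.13 without non-senescent replicate 3 and -0.11 with the replicate block without either replicate 3 library. Those of Fabp4 turned to 0.35 with library weights, 0.93 without non-senescent replicate 2 and 0.0013 without senescent replicate 1, and in the blocked fit to 0.0096 without either replicate 1 and 0.47 without either replicate 2 library. Those of Lpl turned to 0.38 without senescent replicate 2 and 0.11 in the blocked fit without either replicate 2 library, and that of Apod to 0.050 without senescent replicate 2. The cause was not tested.

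Calls among the members were 0, and 0 to 1 when the blocked fit left out a library. Over all genes, 29 calls became 192 with the replicate block, 48 with no filter, 18 with at least 10 in every library, 742 with library weights and 0 to 15 without each library in turn. With the block they were 181, 957 and 103 without non-senescent replicates 1, 2 and 3 and 171, 839 and 101 without the senescent ones. The pathway lists' 1 call became 8 with the block, 3 scaled by library sum, 10 with library weights and 0 with a pseudocount of 0.1, with no filter and with at least 10 in every library, and 0 to 2 without each library in turn. With the block they were 9, 19 and 7 without non-senescent replicates 1, 2 and 3 and 7, 15 and 5 without the senescent ones. The block with no filter on low values gave 28 calls over all genes and 1 in the pathway lists. Among the members, the pathway lists and the cell type markers, the block changed the calls of Ncoa1, Kdr, Il6, Cxcl1, Cxcl5, Ccl2, Saa3 and Hp and no other. Scaling by library sum moved the median log2 fold change of all genes from -0.03 to 0.08. Leaving out libraries under the block, and the block with no filter, were chosen after seeing the data. So was a fit with both library weights and the block. Its weights did not converge and stood at 6.04 for both replicate 3 libraries against 0.215 for both of replicate 2, it called 36.3% of all genes and 5 of the 8 members (Cebpa, Cebpb, Pparg, Fabp4 and Plin2), and it is not used.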

Other observations

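Genes of the same pathway under the level for testing were chosen here after their values were seen. Ppara, the PPAR of fatty acid oxidation, was at 9.25, 4.72 and 6.09 normalized counts in non-senescent and 24.2, 15.9 and 12.2 in senescent replicates 1 to 3. The groups did not overlap, and in the fit with no filter on low values its log2 fold change was 1.25 (SE 0.45, limma adjusted p = 0.498). G0s2, an inhibitor of triglyceride lipase and a target of PPARγ in fat, was at 2.1, 45.1 and 25.1 in non-senescent and 0.46, 0 and 0.41 in senescent replicates. Its log2 fold change in that fit was -3.61 (SE 1.11, limma adjusted p = 0.425), and every senescent value was 0 or near the smallest above 0 in its library.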
